A study of Homo sapiens with 12 samples.

Results

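The PERK-ATF4-CHOP branch of the unfolded protein response was followed through 10 genes in mantle cell lymphoma (MCL) cell lines: EIF2AK3, ATF4, DDIT3, ATF3, TRIB3, CHAC1, PPP1R15A, SESN2, DDIT4 and INHBE. The genes were listed by name for their known place in the branch, with earlier results of these data known, and were found by Ensembl identifier among the 63677 genes of the count table. All 10 were among the 18674 genes that passed the filter on low counts and were tested.

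Messenger RNA of 3 MCL lines, JEKO1, JVM2 and MAVER1, was sequenced in 12 libraries, with 1 library for each line and treatment. The treatments were a control condition, ironomycin, ibrutinib, and both drugs together, the drugs being given for 48 h. Ironomycin, a compound that sequesters iron in lysosomes, was dosed at 50 nM for JEKO1 and 250 nM for both JVM2 and MAVER1. Ibrutinib, an inhibitor of the kinase BTK, was used at 0.5 µM in JEKO1, 1.5 µM in JVM2 and 6.25 µM in MAVER1. Apart from the equal ironomycin dose of JVM2 and MAVER1, dose and cell line cannot be told apart, and the culture medium held more serum for JEKO1 and MAVER1 than for JVM2. Each line is 1 established culture grown from the tumour cells of a patient, and the lines served as the replicates (n = 3) of each treatment.

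When unfolded proteins gather in the endoplasmic reticulum (ER), the kinase PERK phosphorylates the translation factor eIF2α. General translation then slows, while translation of the ATF4 message goes up, and the ATF4 protein switches on genes of amino acid supply, redox balance and, through the factor CHOP, cell death. Other kinases that sense amino acid shortage, heme shortage or viral RNA feed into the same step, so the shared programme is also called the integrated stress response. PERK activity and ATF4 translation are not seen in RNA counts, which report the level of each message only.

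Library totals ran from 35448523 to 38630809 counts, and the 10 genes held between 117 and 49373 counts in a library, so that counting error was small beside the differences between lines. The B-cell markers CD79A, CD79B, MS4A1 and PAX5 were present in all 12 libraries, with median levels of 385, 432, 393 and 253 CPM (counts scaled to library size) and a lowest value of 94.8 CPM, for CD79B. The MCL marker SOX11 was at 0 in the 4 JVM2 libraries and at 51.8 to 216 CPM in the other lines. CCND1, the cyclin activated by the MCL translocation, ranged from 210 to 294 CPM in JVM2 and 2600 to 4810 CPM elsewhere. CCND2 was at 222 to 251 CPM in JVM2 and at most 0.903 CPM elsewhere. The 10 markers of T cells, monocytes and other cells summed to 1.37 to 11.9 CPM in control and 1.26 to 9.39 CPM with both drugs, with CD3D at 0 in 8 libraries and HBB at 0 in all 12. With both drugs against control, CD3E, CD3G and LYZ of that list and the MCL marker CD5 fell and SOX11 rose. CD3E, CD3G and LYZ were near the floor, with median levels of 0.185, 0.0129 and 0.396 CPM. The changes of CD5 and SOX11 were those of JEKO1 and MAVER1. In JVM2, SOX11 had no counts and CD5 stood at 0.0261 CPM in control and 0.0525 CPM with both drugs. The share of counts on mitochondrial genes lay at 1.92% to 2.05% in control, 1.76% to 2.17% with ibrutinib, 1.27% to 1.75% with ironomycin and 0.883% to 1.89% with both drugs. Within each line it was lowest in the library with the highest summed level of the 10 genes, and its part in the results was not tested. In bulk RNA, fewer cells with a high level and less RNA per cell cannot be told apart.

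The stretches before the transcription start of the 10 genes were searched for 4 short motifs, because genes of the branch are known to share some of them. RefSeq promoter windows (GRCh38.p14) were found for 9 genes, all but INHBE. The 250 bases before each start were read on both strands for CARE (TGATGNAA, the composite element bound by ATF4 with a C/EBP partner), CRE (TGACGT, read by ATF and CREB factors), ERSE (CCAAT, 9 bases, CCACG, read by ATF6) and HRE (ACGTG, read by hypoxia factors). A CRE followed by G also holds an HRE. A CARE stood before ATF3 and CHAC1, 2 of the 9 genes, against 3.89% of the 27305 genes with a window. A CRE stood before PPP1R15A (1 of 9, against 8.62%), and an HRE before ATF4 and DDIT4 (2 of 9, against 21.7%). No ERSE was found (0 of 9, against 0.0916%). The stretches with a CARE or a CRE are shown 5′ to 3′ on the strand of the gene, which is the plus strand for all 3, with the CARE or CRE letters in capitals. The ATF3 stretch lies at chr1:212565191-212565248, the CHAC1 stretch at chr15:40953237-40953294 and the PPP1R15A stretch at chr19:48872244-48872395.
ATF3: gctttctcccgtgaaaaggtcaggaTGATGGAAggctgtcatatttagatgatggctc
CHAC1: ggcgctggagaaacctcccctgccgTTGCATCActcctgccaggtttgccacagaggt
PPP1R15A: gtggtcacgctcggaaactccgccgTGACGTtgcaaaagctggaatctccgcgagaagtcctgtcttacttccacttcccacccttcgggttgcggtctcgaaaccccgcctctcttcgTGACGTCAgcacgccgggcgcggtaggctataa
The CARE lay 191 to 184 bases before the start of ATF3, and 209 to 202 bases before that of CHAC1, where it was read on the opposite strand. ATF3 has a second RefSeq start, whose window held none of the 4 motifs, and counts per gene do not tell which start was used. The capitals before PPP1R15A mark a CRE 152 to 147 bases before the start and a second that reads as a CRE on both strands, 58 to 51 bases before the start. These matches describe letters and not binding.

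Levels are given as CPM after TMM scaling (trimmed mean of M values, which adjusts library sizes for composition). To compare genes with each other, CPM was divided by the exon length in kilobases. ATF4 had by far the highest level per kilobase in control, at 125, 234 and 311 CPM per kb in JEKO1, JVM2 and MAVER1. TRIB3 was at 12.2, 30.7 and 33.98 CPM per kb, DDIT3 at 14.3, 9.63 and 11.7, and DDIT4 at 7.94, 68.8 and 19.1. The lowest TRIB3 value lay above the highest of EIF2AK3, ATF3, CHAC1 and INHBE, which was 10.98 CPM per kb for CHAC1 in JVM2. ATF3 was the lowest of the 10 genes in JEKO1 control, at 0.902 CPM per kb, and INHBE the lowest in MAVER1 control, at 1.10. Below ATF4, the control levels of genes next to each other in the order overlapped between lines.

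EIF2AK3 encodes PERK itself, the sensor at the head of the branch. In JEKO1 it stood at 24.3 CPM in control, 31.0 with ibrutinib, 36.5 with ironomycin and 42.0 with both drugs. In MAVER1 the values were 26.9, 28.3, 59.3 and 75.3 CPM in the same order. JVM2 gave 47.4, 41.0, 60.5 and 53.6 CPM. Both libraries with ironomycin lay above both libraries without it in each of the 3 lines, most clearly in MAVER1. The highest value without ironomycin, in JVM2, exceeded those of JEKO1 with it. Exons of EIF2AK3 share 14.4% of their bases with AC104134.1 on the opposite strand (GENCODE v29), where reads are uncertain if counting ignored strand.

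ATF4, the transcription factor at the centre of the branch, had the smallest fitted change of the 10 genes with both drugs against control, 0.48 on the log2 scale. JEKO1 held 315 CPM in control, 382 with ibrutinib, 391 with ironomycin and 488 with both drugs. The 4 JVM2 libraries gave 588, 533, 655 and 611 CPM, and those of MAVER1 gave 781, 765, 955 and 1303 CPM, again in the order control, ibrutinib, ironomycin, both. The largest ratio to control was 1.67, in MAVER1 with both drugs.

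DDIT3 encodes CHOP, the factor that links lasting ER stress to cell death. JEKO1 went from 18.6 CPM in control and 21.0 with ibrutinib to 89.7 with ironomycin and 143 with both drugs. MAVER1 gave 15.3 and 13.2 CPM without ironomycin, 35.5 with it and 51.2 with both drugs. In JVM2 the values were 12.6 CPM in control, 9.65 with ibrutinib, 21.9 with ironomycin and 20.3 with both. The 3 control libraries thus differed little, while those with both drugs spread from 20.3 to 143 CPM. Exons of DDIT3 share 27.2% of their bases with MARS (MARS1), which lies on the opposite strand (GENCODE v29). The strand setting of the counting is not given in the sources used here, so reads of that stretch are uncertain. AC022506.1, on the same strand, shares 8.03% of the exon bases of DDIT3, where reads are uncertain whatever the strand setting.

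ATF3, a stress-induced factor of the same family, had a different order of lines. JVM2 was high throughout, at 35.9 CPM in control, 37.8 with ibrutinib, 51.5 with ironomycin and 51.0 with both drugs. JEKO1 gave 3.64, 4.53, 14.3 and 22.5 CPM, and MAVER1 6.80, 6.20, 10.3 and 9.24 CPM. The ratio of both drugs to control was 6.10 in JEKO1 but 1.42 in JVM2 and 1.36 in MAVER1.

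TRIB3, a pseudokinase that restrains ATF4 and CHOP activity, reached the highest levels per kilobase after ATF4. JEKO1 held 41.9 CPM in control, 54.0 with ibrutinib, 307 with ironomycin and 599.9 with both drugs, a ratio to control of 14.3 in the last. MAVER1 gave 117, 113, 260.1 and 389.5 CPM. JVM2 gave 105, 85.4, 132 and 124 CPM. All 6 libraries with ironomycin lay above all 6 without it, by a narrow margin in JVM2, whose lowest value with ironomycin was 6.95 log2 CPM against a highest value of 6.87 without it, in MAVER1.

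PPP1R15A encodes GADD34, the phosphatase subunit that reverses eIF2α phosphorylation. In JEKO1 it stood at 12.04 CPM in control, 9.98 with ibrutinib, 31.9 with ironomycin and 62.6 with both drugs. MAVER1 gave 32.3, 27.0, 69.5 and 96.1 CPM. JVM2 gave 65.3, 49.2, 99.6 and 92.0 CPM. Ibrutinib alone lay below control in all 3 lines, and each ironomycin library lay above the control of its own line.

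CHAC1 degrades glutathione and is among the targets of ATF4 and CHOP. MAVER1 gave 3.90 CPM in control, 4.45 with ibrutinib, 21.1 with ironomycin and 31.8 with both drugs, ratios to control of 5.36 and 8.06 in the last pair. JEKO1 gave 7.11, 15.1, 17.7 and 23.4 CPM. JVM2 gave 22.6, 13.9, 28.6 and 28.6 CPM. In JEKO1 ibrutinib alone was at 2.11 times the control, close to ironomycin alone at 2.48 times, whereas in JVM2 ibrutinib alone was at 0.615 times the control.

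SESN2 and DDIT4 (REDD1) both lower the activity of the growth kinase mTORC1. SESN2 stood in JEKO1 at 22.2 CPM in control, 33.6 with ibrutinib, 59.0 with ironomycin and 94.8 with both drugs. The MAVER1 values were 21.6, 22.6, 63.6 and 77.1 CPM and those of JVM2 113, 91.5, 145 and 144 CPM. For SESN2, JVM2 control was thus higher than any library of the other lines. DDIT4 gave 16.3, 18.3, 39.1 and 70.6 CPM in JEKO1, and 39.4, 24.6, 56.5 and 80.3 CPM in MAVER1. In JVM2 its highest level was in control, at 142 CPM, with 52.0 with ibrutinib, 114 with ironomycin and 94.8 with both. DDIT4 was the only one of the 10 genes for which JVM2 with ironomycin lay below its control. Exons of DDIT4 share 41.2% of their bases with DDIT4-AS1 on the opposite strand, with the same uncertainty on strand.

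INHBE, a subunit of activin E and a secreted protein mostly studied in liver, covered the widest range. MAVER1 gave 3.32 CPM in control, 3.15 with ibrutinib, 69.5 with ironomycin and 95.04 with both drugs. JEKO1 gave 6.31, 16.4, 95.3 and 142 CPM. JVM2, where control was already at 32.9 CPM, gave 13.9 with ibrutinib, 58.7 with ironomycin and 53.6 with both. With both drugs the level was 28.2 times the control in MAVER1, 22.4 times in JEKO1 and 1.63 times in JVM2. INHBE and TRIB3 were the 2 genes of the 10 whose 6 libraries with ironomycin all lay above the 6 without it, a separation found in 138 of all genes tested (0.739%).

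**Figure D1:**
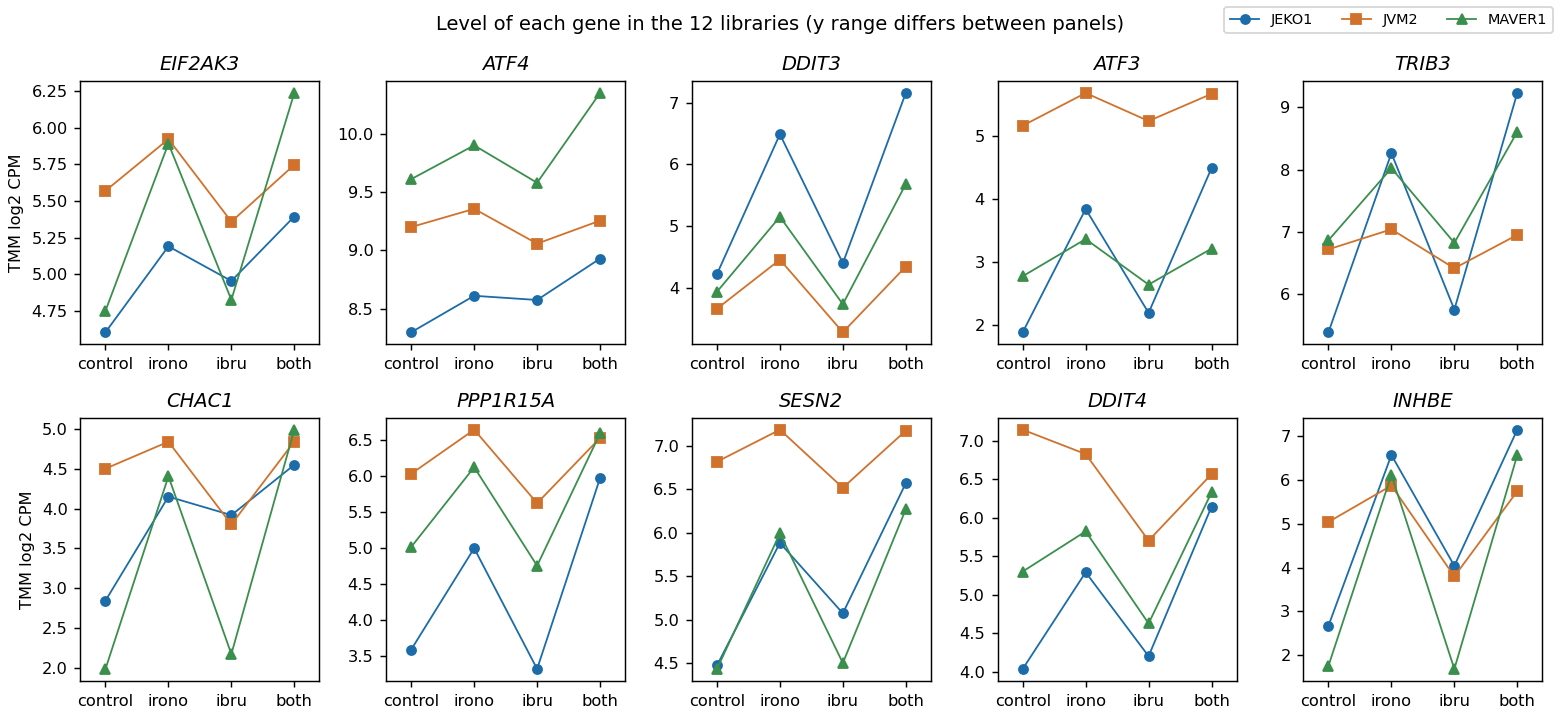
Level of the 10 genes (TMM log2 CPM, y axis, range differs between panels) in the 12 libraries by treatment (x axis; irono, ironomycin; ibru, ibrutinib), with 1 line and marker per cell line and 1 library per point. TRIB3 of JEKO1 goes from 41.9 CPM in control to 599.9 CPM with both drugs, while JVM2 stays between 85.4 and 132 CPM.

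Across the 10 genes, both libraries with ironomycin lay above both without it in all 3 lines for 9, the exception being DDIT4, for which this held in 2 lines. Of all genes tested, 1815 (9.72%) had that order in all 3 lines. With ironomycin alone, all 10 genes lay above control in JEKO1 and MAVER1 and 9 in JVM2, with median log2 ratios of 1.41, 1.15 and 0.36. With both drugs the medians were 2.24 in JEKO1, 1.66 in MAVER1 and 0.35 in JVM2, against 0.03, 0.00 and 0.00 over all genes tested. Ibrutinib alone had no common direction: 9 of the 10 genes lay above control in JEKO1, 1 in JVM2 and 3 in MAVER1, with medians of 0.33, -0.34 and -0.06. These ratios within 1 line rest on 1 library against 1 and have no test.

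**Figure D2:**
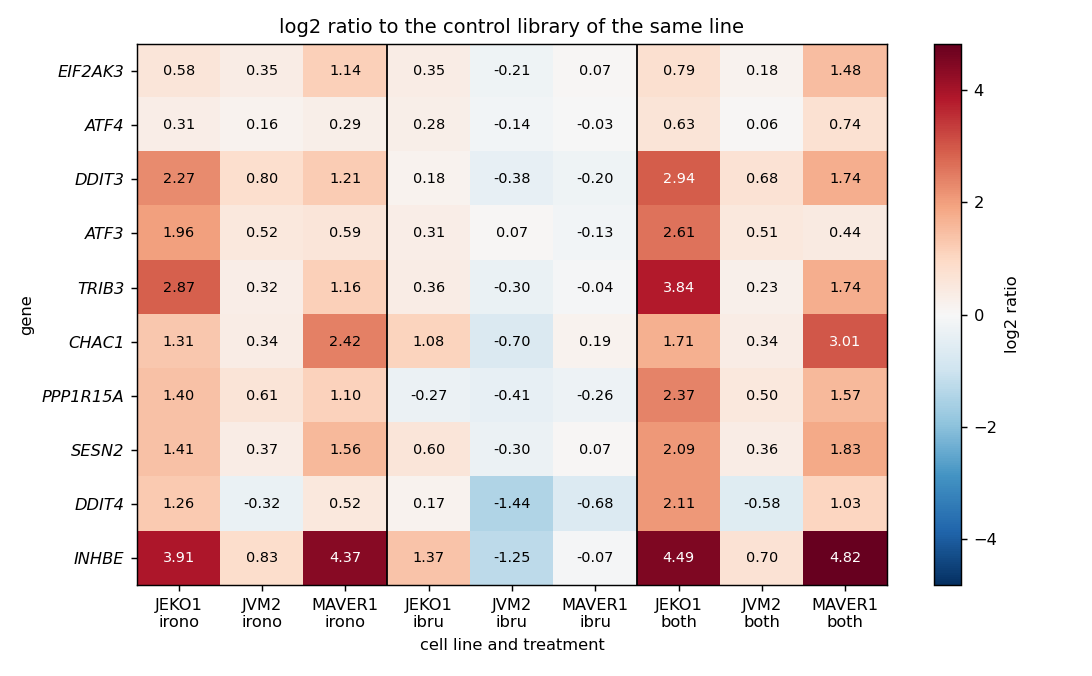
log2 ratio of each gene (rows) to the control library of the same line for ironomycin, ibrutinib and both drugs in each line (columns), 1 library against 1, with the value in each cell. The highest values are those of INHBE with both drugs, 4.82 in MAVER1 and 4.49 in JEKO1, and the lowest is that of DDIT4 with ibrutinib in JVM2, at -1.44.

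The first comparison asked whether ironomycin alone changed the 10 genes over the 3 lines. A gene was called when edgeR's quasi-likelihood test, with cell line as a block, gave an adjusted p (Benjamini-Hochberg over the 18674 genes) under 0.05 with a log2 fold change no smaller than 1 in either direction. None of the 10 genes was called, against 24 genes called higher in all (0.129%). INHBE had the largest log2 fold change, 2.69 ± 0.73 (SE, n = 3 lines per treatment, adjusted p = 0.0867). DDIT3 had 1.39 ± 0.32 (adjusted p = 0.0683), TRIB3 1.32 ± 0.53 (adjusted p = 0.176) and CHAC1 1.22 ± 0.46 (adjusted p = 0.156). SESN2 stood at 1.06 ± 0.27 (adjusted p = 0.0792) and PPP1R15A at 1.004 ± 0.27 (adjusted p = 0.0858). ATF3, EIF2AK3, DDIT4 and ATF4 had smaller values of 0.94, 0.68, 0.36 and 0.25, with adjusted p from 0.107 to 0.573. All 10 estimates were above 0, their median was 1.03 against 0.03 over all genes tested, and 8 had an unadjusted p under 0.05, as did 4198 of the 18674 genes. DESeq2 with the same design called 4 of the 10, DDIT3, PPP1R15A, SESN2 and INHBE, among 156 genes in all, against 40 by edgeR. Without JVM2 the edgeR test also called DDIT3, PPP1R15A, SESN2 and INHBE, among 369 genes in all. Without JEKO1 or MAVER1 it called none of the 10.

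Ibrutinib alone was compared with control in the same fit. No gene of the 10 was called, nor any of the 18674 genes (0% called higher by edgeR). At an unadjusted p under 0.05 there were 680 genes, and DESeq2 called 11 genes, none of them among the 10. DDIT4 had the lowest unadjusted p, 0.0479, with a log2 fold change of -0.78 ± 0.35. The other 9 estimates ran from -0.32 for PPP1R15A to 0.14 for CHAC1. The 95% intervals were wide: -1.84 to 1.27 for INHBE and -0.89 to 0.53 for DDIT3, so that changes within these limits were not excluded.

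Both drugs together were then compared with control. Of the 10 genes, 7 rose: DDIT3, ATF3, TRIB3, CHAC1, PPP1R15A, SESN2 and INHBE. Of all genes tested, 898 were called higher (4.81%). INHBE rose by 3.09 ± 0.75 on the log2 scale (adjusted p = 0.0135), 8.53-fold with a 95% interval of 2.71 to 26.9. TRIB3 rose by 1.96 ± 0.55 (adjusted p = 0.0238), DDIT3 by 1.83 ± 0.33 (adjusted p = 0.00462) and CHAC1 by 1.61 ± 0.47 (adjusted p = 0.0275). The feedback phosphatase gene PPP1R15A rose by 1.52 ± 0.28 (adjusted p = 0.00496), the mTORC1 regulator SESN2 by 1.41 ± 0.28 (adjusted p = 0.0061) and ATF3 by 1.18 ± 0.36 (adjusted p = 0.0341). The upstream genes EIF2AK3 and ATF4 passed the p threshold but not the fold minimum, at 0.82 ± 0.21 (adjusted p = 0.0172) and 0.48 ± 0.13 (adjusted p = 0.0218). DDIT4 stood at 0.81 ± 0.35 (adjusted p = 0.111). DESeq2 also called 7 of the 10. The calls rested on JEKO1 and on MAVER1. Without JVM2 9 of the 10 were called, among 1877 genes in all (1175 with all lines). Without JEKO1, and also without MAVER1, none of the 10 was called. For the 7 genes that rose, the log2 fold changes then ran from 0.475 to 2.53 without JEKO1 and from 0.936 to 2.27 without MAVER1. None was called without the pairing of libraries by line (0.835 to 2.77) or with only the libraries of control and of both drugs (1.12 to 3.41).

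**Figure D3:**
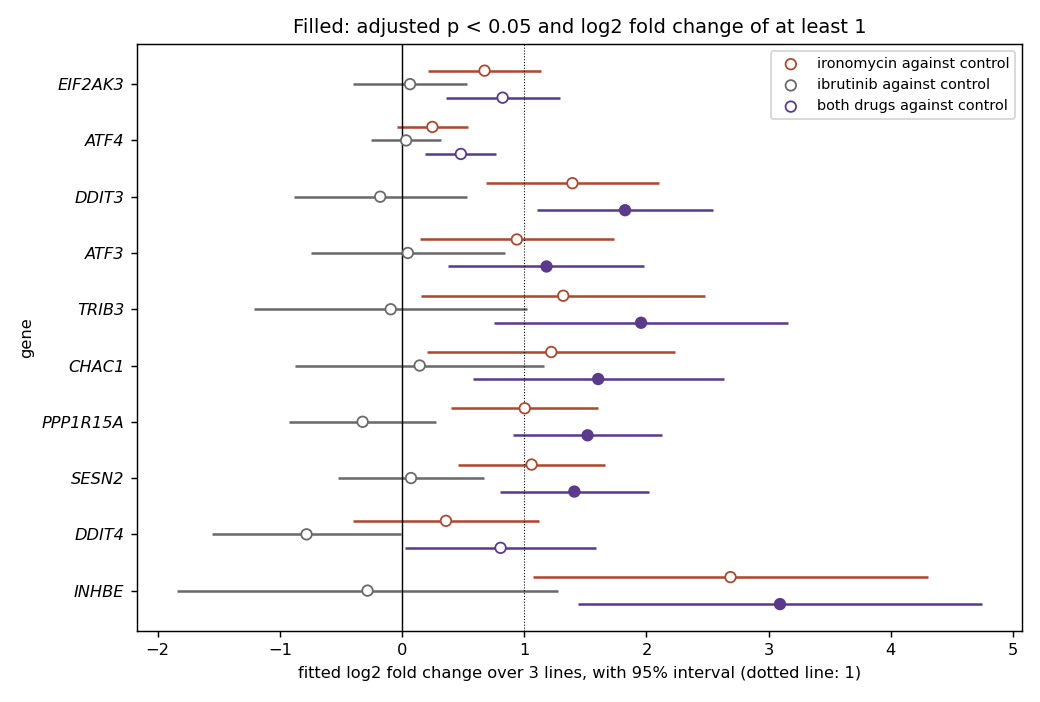
Fitted log2 fold change over the 3 lines (x axis, points) with 95% interval (bars) for each gene (y axis) with ironomycin, ibrutinib and both drugs against control, filled where called. The points of both drugs lie furthest right for all 10 genes, at 3.09 for INHBE and 0.48 for ATF4, and those of ibrutinib lie between -0.78 and 0.14.

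Adding ironomycin to ibrutinib gave a comparison whose treatments share no library with ironomycin against control. Both comparisons come from 1 fit over the same 3 lines, with 1 estimate of the spread, so they are not independent. Against ibrutinib alone, both drugs raised 8 of the 10 genes, while 731 genes were called higher in all (3.91%). The log2 fold changes were 3.38 ± 0.73 for INHBE, 2.05 ± 0.54 for TRIB3, 2.004 ± 0.33 for DDIT3 and 1.84 ± 0.28 for PPP1R15A, with adjusted p of 0.0109, 0.0223, 0.00556 and 0.00483. DDIT4 rose by 1.59 ± 0.35 (adjusted p = 0.0121), CHAC1 by 1.46 ± 0.46 (adjusted p = 0.0428), SESN2 by 1.34 ± 0.27 (adjusted p = 0.0092) and ATF3 by 1.13 ± 0.36 (adjusted p = 0.0444). EIF2AK3 at 0.76 ± 0.21 and ATF4 at 0.45 ± 0.13 had adjusted p of 0.0276 and 0.0329 and stayed under the fold minimum. Without JEKO1, without MAVER1 or without the pairing by line none of the 10 was called, and with only the libraries of ibrutinib and of both drugs 5 were.

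Adding ibrutinib to ironomycin called none of the 10 genes and none of all genes tested (0% higher by edgeR, with 1970 genes at an unadjusted p under 0.05 and 22 called by DESeq2). All 10 estimates were above 0, from 0.15 ± 0.21 for EIF2AK3 to 0.64 ± 0.51 for TRIB3, with no unadjusted p under 0.05 among them. The median was 0.39 against 0.01 over all genes. In single lines the ratio of both drugs to ironomycin was over 1 for all 10 genes in JEKO1, from 1.15 for EIF2AK3 to 1.96 for PPP1R15A. In MAVER1 it was over 1 for 9 genes, the exception being ATF3 at 0.901. In JVM2 the ratios ran from 0.835 for DDIT4 to 1 for CHAC1.

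Whether the effect of both drugs departed from the sum of the single changes on the log2 scale was tested as 1 contrast. It called none of the 10 genes and none of all genes tested (0% by edgeR), with 367 genes at an unadjusted p under 0.05 and 0 called by DESeq2. DDIT4 had the largest departure, 1.23 ± 0.49 (unadjusted p = 0.0285, adjusted p = 1), followed by PPP1R15A with 0.84 ± 0.38 (unadjusted p = 0.0516, adjusted p = 1). The other 8 departures lay between 0.08 for EIF2AK3 and 0.73 for TRIB3. Their 95% intervals all included 0 and reached from -1.40 to 2.78 for INHBE.

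The size of the ironomycin effect differed between lines for 7 of the 10 genes: EIF2AK3, DDIT3, ATF3, TRIB3, CHAC1, SESN2 and INHBE. The test compared the effect of ironomycin, averaged over libraries with and without ibrutinib, between the 3 lines, and called 1488 of all genes tested (7.97%). TRIB3 had the lowest adjusted p, 0.00216, with log2 fold changes of 3.22 in JEKO1 (95% interval 2.67 to 3.77), 1.47 in MAVER1 (0.96 to 1.99) and 0.41 in JVM2 (-0.10 to 0.92). ATF3 (adjusted p = 0.00345) was at 2.16 in JEKO1, 0.59 in MAVER1 and 0.48 in JVM2. DDIT3 (adjusted p = 0.0179) was at 2.54 in JEKO1, 1.59 in MAVER1 and 0.92 in JVM2. These 3 genes had their largest effect in JEKO1, the line given the lowest dose.

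A second set had its largest estimate in MAVER1, with 95% intervals that overlapped those of JEKO1 for INHBE and SESN2. INHBE (adjusted p = 0.014) was at 4.66 in MAVER1 (95% interval 3.62 to 5.70), 3.401 in JEKO1 (2.48 to 4.32) and 1.24 in JVM2 (0.38 to 2.10). CHAC1 (adjusted p = 0.0246) was at 2.65 in MAVER1, 0.91 in JEKO1 and 0.63 in JVM2. EIF2AK3 (adjusted p = 0.0243) was at 1.28 in MAVER1, 0.51 in JEKO1 and 0.37 in JVM2. SESN2 (adjusted p = 0.0345) had near values of 1.66 in MAVER1 and 1.46 in JEKO1 against 0.49 in JVM2. The lines were not called different for ATF4 (adjusted p = 0.436), PPP1R15A (adjusted p = 0.0895) or DDIT4 (adjusted p = 0.186).

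JVM2 had the smallest effect for each of the 10 genes. Set against the mean of JEKO1 and MAVER1, its effect was lower for 5 of them: INHBE by a log2 difference of -2.79 ± 0.50 (adjusted p = 0.00918), TRIB3 by -1.93 ± 0.29 (adjusted p = 0.00363), DDIT3 by -1.15 ± 0.26 (adjusted p = 0.028), SESN2 by -1.07 ± 0.23 (adjusted p = 0.0214) and ATF3 by -0.90 ± 0.20 (adjusted p = 0.0251). Over all genes, 664 were called lower (3.56%) and 445 higher. The other 5 differences were also below 0, from -0.26 for ATF4 to -1.27 for DDIT4, with adjusted p from 0.0776 to 0.41. When JEKO1 was left out, 5 of the 10 genes were called, among 2366 genes in all. Without MAVER1, when JVM2 was set against JEKO1, 3 were called, among 317 in all. JVM2 and MAVER1 were given the same dose of ironomycin but different doses of ibrutinib, and the part of dose was not tested.

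**Figure D4:**
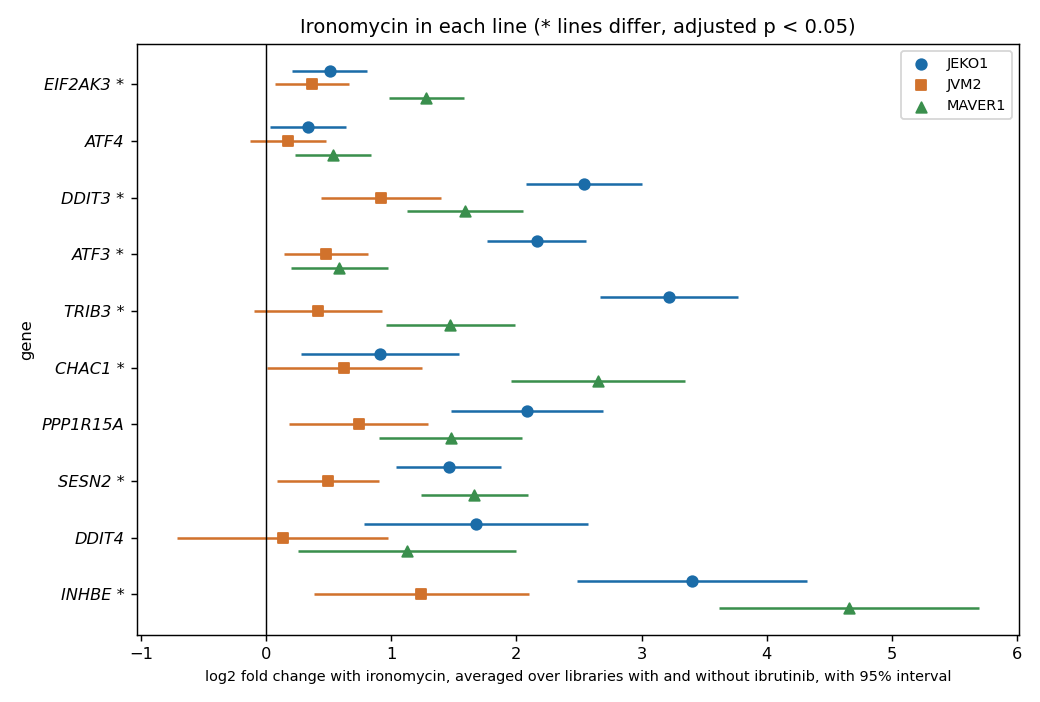
log2 fold change with ironomycin in each line, averaged over libraries with and without ibrutinib (x axis, points, with 95% interval as bars), for each gene (y axis), with an asterisk where the lines differed. The JVM2 points lie between 0.13 for DDIT4 and 1.24 for INHBE, left of both other lines for all 10 genes.

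The effect of ibrutinib, averaged over libraries with and without ironomycin, differed between lines for 1 of the 10 genes, SESN2 (adjusted p = 0.0355), while 177 of all genes tested were called (0.948%). SESN2 was at 0.65 in JEKO1 (95% interval 0.44 to 0.85), 0.18 in MAVER1 (-0.03 to 0.39) and -0.15 in JVM2 (-0.35 to 0.04). Of the other 9 genes, 8 had an unadjusted p under 0.05, as did 1851 of all genes tested, and none passed adjustment. All 10 estimates were above 0 in JEKO1, from 0.28 to 0.90, and 9 were below 0 in JVM2, ATF3 being at 0.03. SESN2 was no longer called with no filter on low counts, with a filter on the mean level, without JEKO1 or without JVM2, whereas 9 of the 10 genes were called when a term for ironomycin with ibrutinib was added to the model.

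The genes moved together within lines. After the mean of each line was taken away, the 45 pairs of the 10 genes had Pearson correlations from 0.581 to 0.990 over the 12 libraries, with a median of 0.894. These points share libraries and treatments, so the values are a description. The highest were those of EIF2AK3 with CHAC1 (0.990), and of DDIT3 with PPP1R15A and SESN2 with INHBE (0.986 each). The lowest were those of ATF3 with CHAC1 (0.581) and with EIF2AK3 (0.607), pairs whose members had their largest effects in different lines.

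Outside the 10 genes, the pattern most like that of DDIT3 was that of CCPG1, an ER-phagy receptor, with a Pearson correlation of 0.994 over the 12 libraries among 11375 genes compared. NFE2L1 (0.990), NT5DC2 (0.986), CCDC18-AS1 (0.986) and ATP6AP1 (0.985) came next. Reads of CCPG1 are uncertain, since 38.7% of its exon bases also belong to the read-through gene DNAAF4-CCPG1. The genes most like the mean of the 10 were ADGRG1 (0.992), an adhesion receptor, INHBC (0.989), CCDC18-AS1, ERN1 and ALDH1L2 (0.986 each). ERN1 encodes IRE1, the sensor of another branch of the unfolded protein response, and ALDH1L2 is a mitochondrial folate enzyme. INHBC, which encodes another activin subunit, lies next to INHBE on chromosome 12 without shared exon bases, and its log2 ratio of both drugs to control was 3.50 in JEKO1, 3.24 in MAVER1 and 0.22 in JVM2. ADGRG1 was at 5.11, 4.82 and 1.06 in the same order.

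Further genes were described in lists drawn up by known role, none of whose genes was called by edgeR with ironomycin alone. Their counts with both drugs stand beside 898 genes called higher (4.81%) and 277 called lower among all 18674. Among 17 genes of the eIF2 kinases and translation machinery, 1 rose with both drugs, DNAJC3 (1.10 ± 0.24, adjusted p = 0.00959), a chaperone that inhibits PERK. The median of that list was -0.16 against 0.05 over all genes, and a count of 1 is near the share of all genes called higher, here and in the lists of bZIP factors, p53 targets and HIF targets. Of 14 tested partners and relatives of ATF4 and CHOP among the bZIP factors, 1 rose, CEBPB (1.24 ± 0.27, adjusted p = 0.00918), and the median was 0.17.

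Among 18 tested further targets of ATF4 and CHOP, 7 rose with both drugs and none fell, with a median of 0.73. The 3 with the lowest adjusted p were ADM2 (2.20 ± 0.40, adjusted p = 0.00473), KLHL24 (1.57 ± 0.31, adjusted p = 0.00634) and CCPG1. Against ibrutinib alone 7 rose, among them GDF15, a secreted stress cytokine, by 4.03 ± 0.79 (adjusted p = 0.00828). With ironomycin alone none of the 18 was called and all 18 estimates were above 0, with 14 at an unadjusted p under 0.05, against 4198 of the 18674 genes.

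Of the 32 ATF4 targets of amino acid supply, 3 rose with both drugs (4.81% over all genes), SLC6A9, a glycine transporter (2.21 ± 0.45, adjusted p = 0.00689), SLC7A11, the cystine transporter that feeds glutathione synthesis (1.30 ± 0.30, adjusted p = 0.0112), and WARS1, a tRNA synthetase (1.25 ± 0.29, adjusted p = 0.0108). None fell, and the median of the list was 0.30. In JVM2 with both drugs 16 of the 32 lay above control, with a median log2 ratio of -0.01. In JEKO1 and in MAVER1 25 of the 32 did, with medians of 0.52 and 0.37. Ibrutinib alone had no common direction in this list: 28 of the 32 lay above control in JEKO1, 17 in MAVER1 and 2 in JVM2. The medians were 0.30, 0.03 and -0.25 in the same order, against 0.00 over all genes tested in each line. These ratios rest on 1 library against 1 and have no test.

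Lists of neighbouring pathways were set beside the branch. With both drugs 5 of 13 genes of the IRE1 branch rose, led by DERL3 (1.90 ± 0.30, adjusted p = 0.00347), ERN1 (2.42 ± 0.47, adjusted p = 0.00581) and SEL1L (1.45 ± 0.28, adjusted p = 0.00598), and the median was 0.76. None of 12 genes of the ATF6 branch and ER folding was called, although all 12 estimates were above 0, with a median of 0.55 and HYOU1 at 0.93 ± 0.22 (adjusted p = 0.0112). With ironomycin alone, 7 of the 13 IRE1 genes and 11 of the 12 ATF6 genes had an unadjusted p under 0.05, against the same 4198 of 18674. Of 16 p53 targets 1 rose with both drugs, TP53INP1 (1.79 ± 0.29, adjusted p = 0.00373), and the median was 0.10. Of 17 HIF targets 1 rose, NDRG1 (1.17 ± 0.21, adjusted p = 0.0049), and 3 fell, among them LDHA (-1.31 ± 0.22, adjusted p = 0.00392) and PGK1 (-1.03 ± 0.17, adjusted p = 0.00383).

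In the contrast of JVM2 with the other lines, the ironomycin effect was lower in JVM2 for 11 of the 13 IRE1 genes and 10 of the 12 ATF6 genes, against 664 genes called lower (3.56%) and 445 called higher in all. XBP1 differed by -1.05 ± 0.12 (adjusted p = 0.00119) and HYOU1 by -0.95 ± 0.13 (adjusted p = 0.00191). Of the 18 further ATF4 and CHOP targets 6 were lower, among them WIPI1 (-1.75 ± 0.27, adjusted p = 0.00472) and the cell death gene BCL2L11 (-1.88 ± 0.35, adjusted p = 0.0116). Of the 32 amino acid targets 5 were lower and 1 was higher. Of the 16 p53 targets 5 were higher in JVM2, such as DDB2 (0.70 ± 0.11, adjusted p = 0.00399), and 2 were lower. The lowest adjusted p of that list was that of TP53INP1, which was lower in JVM2 (-1.24 ± 0.18, adjusted p = 0.00294). Of the HIF targets 4 were higher and none lower.

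**Figure D5:**
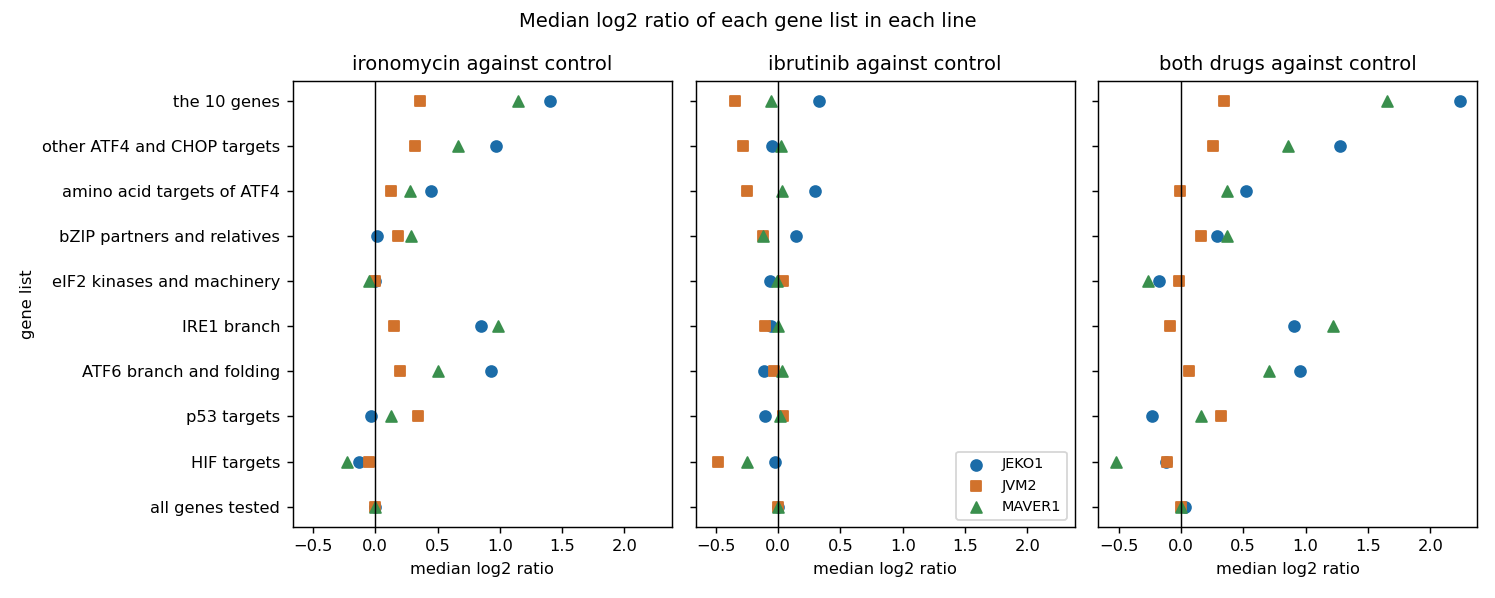
Median log2 ratio to the control library of the same line (x axis) for each gene list and for all genes tested (y axis), with ironomycin, ibrutinib and both drugs, 1 point per cell line. With both drugs the 10 genes stand at 2.24 in JEKO1, 1.66 in MAVER1 and 0.35 in JVM2, to the right of every other list in each line.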

How the data were processed

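PolyA RNA of the 12 samples was sequenced as paired-end reads (DNBSEQ). The authors deposited 1 table of raw read counts per Ensembl gene. Per the labels, the submitters' processing notes name STAR, DESeq2 and the build GRCh37. The counting tool, annotation release and strand setting are not given in the sources used here. The table lists 63677 genes, of which 52181 were named by Ensembl ID, and no pair of libraries was identical.

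Tests used edgeR 4.0.16 under R 4.3.3 (filterByExpr on treatment, TMM, glmQLFit and glmQLFTest) in 1 fit of treatment with cell line as a block, with Benjamini-Hochberg adjustment over 18674 genes. Effects of ironomycin within lines, and the contrast of JVM2 with the other lines, came from a fit with an ironomycin term for each line and a common ibrutinib term. Effects of ibrutinib within lines came from a separate fit with ironomycin and ibrutinib terms for each line. Scripts were tested on simulated counts. A gene was called at an adjusted p under 0.05 and, between treatments, a log2 fold change of at least 1. Levels are CPM after TMM, and log2 CPM has a prior count of 2. Exon lengths are from GENCODE v29. DESeq2 1.42.0 was an alternative, with 0.5 as another prior count.

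The labels give no replicate beyond the line. Libraries of 1 line deviated together from the treatment means, with correlations of 0.926 to 0.976 over 18 pairs, so line was kept as the pairing. The 48 pairs of different lines had -0.705 to -0.127. Taking away a mean of 3 lines pushes these values below 0, so they are no separate evidence. Nothing in the labels says that the libraries of a line came from separate cultures, and p-values of the treatment comparisons measure the spread between 3 lines. The p-values for ibrutinib by line measure how far a drug effect within a line differs with and without the other drug. Those for ironomycin by line, and for JVM2 against the other lines, also hold the spread of the ibrutinib effect between lines. Library totals of 35448523 to 38630809 counts limit precision less than this number of lines.

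The 10 genes and the lists were chosen with earlier results of these data known. All 10 genes are named in every comparison. Of each other list, at most 3 called genes with the lowest adjusted p are named, or the 1 with the lowest p. Of genes with a like pattern, the 5 with the highest Pearson correlation and a mean of at least 1 log2 CPM are named. Python 3.11.15, pandas 2.3.3 and matplotlib 3.10.9 were used.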

Additional observations from a re-analysis of the deposited data

Results flagged for a closer look

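The effect of ironomycin differed between the 3 lines, by a test of the difference itself, for 7 of the 10 genes. The adjusted p were 0.0243 for EIF2AK3, 0.0179 for DDIT3, 0.00345 for ATF3, 0.00216 for TRIB3, 0.0246 for CHAC1, 0.0345 for SESN2 and 0.014 for INHBE. ATF3, TRIB3 and DDIT3 had the largest effect in JEKO1 and the other 4 in MAVER1, while JVM2 had the smallest for all 7. The effect of ibrutinib differed between lines for SESN2 (adjusted p = 0.0355), with log2 fold changes of 0.65 in JEKO1, 0.18 in MAVER1 and -0.15 in JVM2, a call lost with no filter on low counts and with a filter on the mean. Dose differs with line for both drugs, and the lines and doses cannot be told apart, save that JVM2 and MAVER1 were given ironomycin at the same 250 nM.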

How the results depend on the processing

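With 3 lines, leaving out 1 line changed many calls. The count of the 10 genes called with ironomycin alone, 0 in the report, was 3 with no filter on low counts, 4 with DESeq2, and 0 to 4 when a line was left out, the 4 being without JVM2. With both drugs against control it was 0 with no replicate block (no pairing by line), 0 with only the libraries of the 2 treatments, and 0 to 9 when a line was left out (0 without JEKO1 and without MAVER1). With both drugs against ibrutinib it was 0 with no block, 5 with only the libraries of the 2 treatments and 0 to 8 when a line was left out. The count for ironomycin by line was 3 to 5 when a line was left out, with 2 of the 3 effects compared, and that for JVM2 against the others 3 to 5. The count for ibrutinib by line, 1 in the report, was 0 with no filter and 0 with the filter on the mean, 0 to 1 when a line was left out, and 9 with the added term. TMM, DESeq2 size factors and library totals gave the same counts of the 10 genes in all 9 comparisons, although library totals moved the median of all genes with both drugs from 0.05 to 0.18 against control and from 0.05 to 0.15 against ibrutinib. Within 100 bases of the start, CARE matches fell to 0 genes and HRE to 1. Counts over all genes varied more: with ironomycin alone 40, against 0 to 369, with both drugs against control 1175, against 0 to 1877 (5268 by adjusted p alone), with both drugs against ibrutinib 870, against 0 to 1439 (4359), with both drugs against ironomycin 0, against 0 to 33, and with ibrutinib 0, against 0 to 12. By line they were 1488, against 317 to 2366, for ironomycin, 1109, against 317 to 2366, for JVM2 against the others, and 177, against 10 to 702, for ibrutinib.

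No called gene changed direction under any alternative. Estimates that were not called did. With ibrutinib against control and no block, ATF4 was -0.004, CHAC1 -0.01 and SESN2 -0.081, and with only the libraries of the 2 treatments TRIB3 was 0.002. When a line was left out, the ibrutinib estimates ran from -0.089 to 0.229 for EIF2AK3, -0.089 to 0.125 for ATF4, -0.018 to 0.149 for ATF3, -0.195 to 0.098 for TRIB3, -0.424 to 0.775 for CHAC1, -0.155 to 0.344 for SESN2 and -0.984 to 0.868 for INHBE. Those of ATF3 with both drugs against ironomycin ran from -0.08 to 0.397. Departures from the sum ran from -0.046 to 0.213 for EIF2AK3, -0.062 to 0.313 for ATF3, -0.264 to 0.804 for CHAC1 and -0.371 to 1.279 for INHBE. By Spearman's rho, 2 of the 5 genes most like DDIT3 and 1 of the 5 most like the mean stayed among the first 5. A prior count of 0.5 moved the 15 median log2 ratios within lines by at most 0.006. The cause of these shifts was not tested.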
